A study of Mus musculus with 6 samples.

Results

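The cell cycle genes described here are 43 genes of DNA replication, chromosome structure and mitosis that were listed by name, without using their measured values. All 43 were found among the 14098 genes of a single-cell UMI count table of mouse regulatory T cells. A UMI is a molecular tag that lets each captured RNA molecule be counted once. By role, 12 members act in DNA replication, 21 act in mitosis, and 10 act in chromatin, histone supply or other steps.

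The cells were Foxp3-GFP+ Treg cells sorted from the spleens of C57BL/6 mice at 18 to 21 weeks of age. There were 3 conditional knockout samples, of genotype Bach2fl/fl Foxp3EGFP-Cre-ERT2, and 3 wild-type samples, of genotype Bach2+/+ Foxp3EGFP-Cre-ERT2. All 6 samples carry the Foxp3EGFP-Cre-ERT2 allele, in which the Foxp3 gene drives EGFP and a Cre recombinase that acts only when tamoxifen or a similar drug is bound. The labels give no drug, dose or time of treatment, and they do not say which part of Bach2 is flanked by lox sites. The cells fall into 6 sets by the ending of their barcodes, and nothing in the sources used here ties a set to a sample, so no comparison between genotypes was made and no test was run. Values over the 6 sets show the spread between barcode sets, which may include a genotype difference. Intervals cover counting error only.

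Of 10685 cells, 10680 were kept, with 1641 to 1900 cells and 3998172 to 4785201 UMIs in a set and a median of 2091 UMIs per cell. Levels are given as CPM, a gene's UMIs per 1000000 UMIs, and 3′ UMI counts are not divided by gene length. Bach2, the targeted gene, was measured at 19.4 to 37.1 CPM across the sets, and no set was assigned a genotype from it. T cell receptor complex genes were common, whereas Foxp3 itself was caught in few cells, with a level of 21.6 CPM outside the cells rich in cycle RNA. Across the sets, 63 barcodes occurred in more than 1 set. No doublet caller was run, and whether doublets were removed earlier is not given in the sources used here.

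A cell that divides first copies its DNA in S phase and then separates the copies in M phase. Licensing of replication origins and the supply of nucleotides use genes that are commonly switched on by E2F factors at the end of G1. Cyclin B, Cdk1, the Aurora kinases and the chromosomal passenger complex peak later, and many of their promoters carry a CCAAT box and a cell cycle homology region (CHR). Regulatory T cells restrain other immune cells, and most of those in the spleen of an unchallenged adult mouse are not dividing at a given moment.

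Promoter sequences of 4 members are shown because they stand at opposite ends of the measurements below: Mcm6 and Pcna were spread over many cells, and Ccnb2 and Birc5 were concentrated in few. Each is the 250 bases before the annotated start, 5′ to 3′ on the gene's strand, from RefSeq on GRCm38.p6. Capitals mark matches to an E2F motif (TTTCCCGC, TTTGGCGC, TTTCGCGC or TTTGCCGC), to CCAAT, or to a CHR (TTTGAA or TTCGAA), each searched on both strands. The Mcm6 window lies at chr1:128359706-128359955 on the minus strand, the Pcna window at chr2:132253181-132253430 on the minus strand, the Ccnb2 window at chr9:70421555-70421804 on the minus strand, and the Birc5 window at chr11:117848987-117849236 on the plus strand.
Mcm6: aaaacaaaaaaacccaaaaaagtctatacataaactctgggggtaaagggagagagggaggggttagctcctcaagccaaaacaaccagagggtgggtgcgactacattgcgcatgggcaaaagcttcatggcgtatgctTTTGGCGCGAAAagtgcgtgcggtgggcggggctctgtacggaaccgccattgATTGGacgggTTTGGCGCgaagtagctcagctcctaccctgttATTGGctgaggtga
Pcna: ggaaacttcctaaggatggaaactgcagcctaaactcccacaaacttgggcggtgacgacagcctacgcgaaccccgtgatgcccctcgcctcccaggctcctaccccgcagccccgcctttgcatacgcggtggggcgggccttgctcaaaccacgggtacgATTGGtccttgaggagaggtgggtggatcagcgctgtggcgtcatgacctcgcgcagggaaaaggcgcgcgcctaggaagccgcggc
Ccnb2: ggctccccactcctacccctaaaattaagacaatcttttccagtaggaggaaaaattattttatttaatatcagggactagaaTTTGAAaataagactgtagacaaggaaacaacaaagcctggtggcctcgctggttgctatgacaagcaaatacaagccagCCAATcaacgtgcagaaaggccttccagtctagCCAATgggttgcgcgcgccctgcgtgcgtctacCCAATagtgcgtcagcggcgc
Birc5: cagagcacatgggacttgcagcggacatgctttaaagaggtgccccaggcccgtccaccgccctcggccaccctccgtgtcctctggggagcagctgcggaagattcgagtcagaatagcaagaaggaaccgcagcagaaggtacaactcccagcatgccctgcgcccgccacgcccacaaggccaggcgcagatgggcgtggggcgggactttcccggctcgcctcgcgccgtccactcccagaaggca

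The Mcm6 window held 3 E2F matches, of which a pair overlap, and a pair of CCAAT boxes. The Pcna window held a single CCAAT box, on the opposite strand. The Ccnb2 window held 3 CCAAT boxes, the nearest starting 21 bases before the gene, and a CHR match that starts 167 bases before it. The Birc5 window held no match to any of these letters. A match is a description of letters and was not tested as a binding site.

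Windows were found for 36 of the 43 members (none for Mcm4, Ccna2, Aurkb, Tpx2, Stmn1, Smc4 and Hist1h2ap). An E2F match stood before 4 of 11 replication members (Mcm5, Mcm6, Mcm7 and Uhrf1), 1 of 18 mitosis members (Cdk1) and 0 of 7 chromatin and other members, against 2.16% of all RefSeq genes with a window. A CCAAT box stood before 9 of 11 replication, 16 of 18 mitosis and 7 of 7 chromatin and other members, against 37.5% of all genes. A CHR match stood before 2 of 11, 8 of 18 and 4 of 7, against 19.6% of all genes.

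Cycle RNA was thinly spread over many cells and dense in a few. A UMI of at least 1 replication member was seen in 39.6% of cells (95% exact Clopper-Pearson interval 38.7 to 40.5), and a UMI of at least 1 mitosis member in 20.9% (20.1 to 21.7). Counting distinct genes among the 33 replication and mitosis members, 5237 cells (49.0%) had none, 3566 had 1, 1268 had 2, 359 had 3 and 91 had 4. At the other end, 83 cells had 10 or more distinct genes, 48 had 20 or more, and the richest cell had 31.

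Cells with UMIs of 5 or more of these 33 genes are called cycle-rich cells below. They numbered 159, or 1.49% of cells (1.27 to 1.74), and the other cells had up to 4 of the genes. The cells next to the threshold were 28 with exactly 5 genes and 91 with 4. The sets held 26, 17, 10, 33, 31 and 42 cycle-rich cells, which is 1.37%, 0.95%, 0.55%, 1.84%, 1.80% and 2.56% of their cells. The third set had the lowest share and the sixth the highest. With each cell thinned to 1000 UMIs and 3 distinct genes required, 123 cells passed, of which 80 were among the 159. At full depth the share was 5.70% with 3 genes required and 0.94% with 8, and 0.39% without the deepest 2% of cells and cells with an Hbb-bs, Cd8a, Lyz2 or Cd79a UMI.

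**Figure D1:**
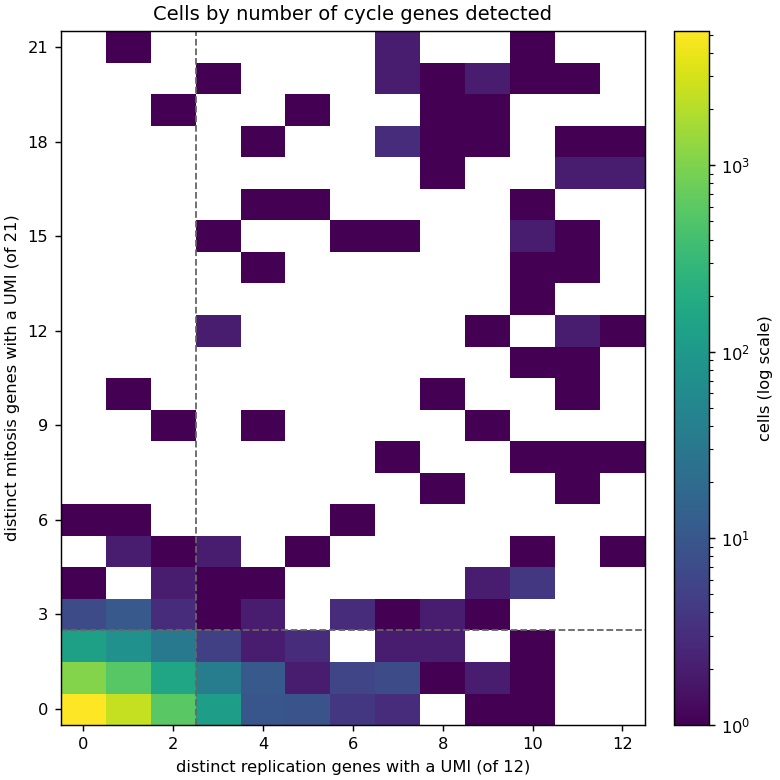
Number of cells by distinct replication genes (horizontal axis, 0 to 12) and distinct mitosis genes (vertical axis, 0 to 21), with cell number shown as colour on a log scale and dashed lines below 3 genes. Most of the 10680 cells sit in the lower left corner, with 5237 at 0 and 0, and a thin cloud reaches up to 31 genes in all.

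Cycle-rich cells were deeper than the rest. Their median was 7189 UMIs and 2161 genes, against 2076 UMIs and 914 genes in the other cells, and they held 4.97% of all UMIs. A deeper cell shows more distinct genes of any kind, and the part of depth or of doublets in this set of cells was not tested. Every one of the 159 had a UMI of a T cell marker, and 99.4% had Cd3d, a chain of the T cell receptor complex. By the marker rule, 0 of 90 B cell-like cells, 0 of 3 plasma cell-like cells, 1 of 30 myeloid-like cells and 2 of 11 erythroid-like cells were cycle-rich. Summed B cell markers stood at 345 CPM in cycle-rich cells and 586 CPM in the others, with 2 of 7 markers at 0 in the former. Summed myeloid markers stood at 381 and 414 CPM, with none of 7 at 0. Erythroid markers were higher in cycle-rich cells, at 5068 against 665 CPM. Of 4 cells made mostly of haemoglobin RNA, 1 was cycle-rich, and without it the cycle-rich cells stood at 84.7 CPM. The 665 CPM of the other cells still includes such cells and is not a match for that value.

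The share of a member's UMIs that lay outside the cycle-rich cells differed between the gene groups, although single members of the groups overlapped. The genes that chose cells were 21 mitosis and 12 replication members, so mitosis RNA offers more ways to reach 5 genes. How much this adds to the difference in shares was not tested. To keep a gene from choosing its own cells, the cycle-rich cells for each replication or mitosis gene were those with 5 or more of the other 32 genes. By this measure 71.2% of the 7827 replication UMIs lay outside (70.2 to 72.2), against 40.0% of the 6308 mitosis UMIs (38.8 to 41.2). The replication share ran from 59.3% to 86.4% over the sets and the mitosis share from 29.6% to 59.7%, and within every set the replication share was the higher. Of the 12 replication members, 10 had most of their UMIs outside, whereas of the 21 mitosis members this held for Cenpa and Cks2 alone. Cenpa held 793 and Cks2 595 of the 2521 mitosis UMIs outside. The median share outside was 70.5% over the replication members and 28.0% over the mitosis members. The chromatin and other members, which did not choose cells, had 73.8% of 52945 UMIs outside (73.4 to 74.2), with a range over the sets from 61.2% to 86.1%. The median share over these members was 56.3%. The mitosis share outside was higher, at 74.3% when cells were thinned to 1000 UMIs, 62.3% in the cells that the second deposited table also holds and 82.3% without the deepest and marker-bearing cells, with replication shares of 92.1%, 85.5% and 95.5%.

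**Figure D2:**
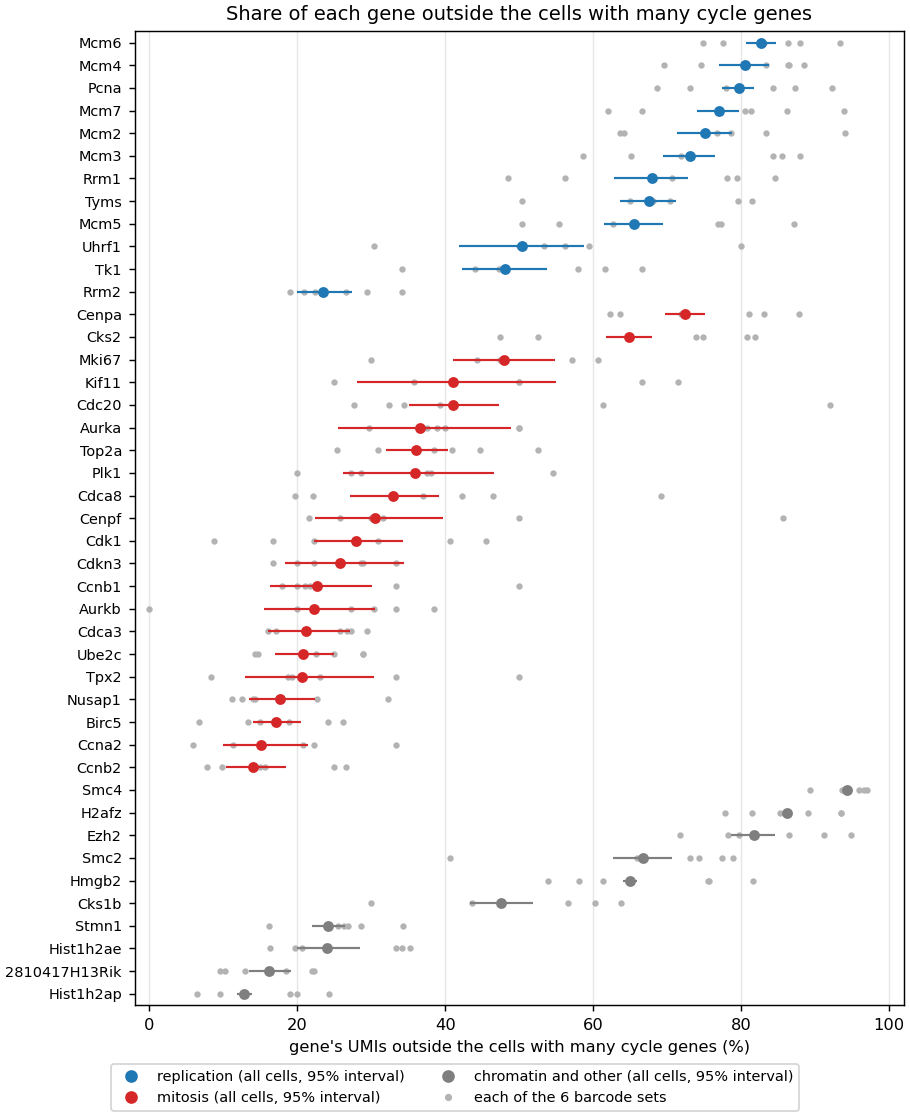
Share of each gene's UMIs outside the cells with many cycle genes (horizontal axis, %), with coloured points for all cells, bars for 95% exact binomial intervals and grey points for the 6 barcode sets. Replication genes run from 23.5% for Rrm2 to 82.7% for Mcm6, mitosis genes from 14.1% for Ccnb2 to 72.5% for Cenpa, and the remaining members from 12.8% for Hist1h2ap to 94.3% for Smc4.

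The same contrast appears when UMIs are laid out by how many other cycle genes a cell carried. Of replication UMIs, 33.1% lay in cells with no other gene of the 33, 33.1% in cells with 1 or 2, 4.98% with 3 or 4, 6.39% with 5 to 9 and 22.4% with 10 or more. Of mitosis UMIs, 17.9% lay in cells with no other gene, 19.2% with 1 or 2, 2.92% with 3 or 4, 2.55% with 5 to 9 and 57.5% with 10 or more. Cells between the extremes thus held few UMIs of either kind, but such cells were themselves few. Of the 33 genes, 450 cells had 3 or 4 and 76 cells had 5 to 9. The number of cells, taken from the richest down, that held 50% of a gene's UMIs had a median of 190 over the replication members, 20 over the mitosis members and 111.5 over the rest. It was 30 or fewer for 16 mitosis members and for a single replication member, Rrm2.

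The outside signal was set beside that in cells whose markers were those of B or myeloid cells, called comparison cells here. Among them was the 1 myeloid-like cell that was cycle-rich, and it was not left out. Thinned to 1000 UMIs per cell, with 315 shallower cells left out (none cycle-rich), a replication UMI was seen in 73.0% of cycle-rich cells (65.3 to 79.7), 20.4% of other cells (19.6 to 21.2) and 18.7% (11.8 to 27.4) of 107 comparison cells. A mitosis UMI was seen in 56.6% of cycle-rich cells, 9.85% of other cells (9.28 to 10.4) and 12.1% (6.63 to 19.9) of comparison cells. Unthinned, 34.7% of all 118 comparison cells (median 1940.5 UMIs) had a replication UMI and 17.8% a mitosis UMI. The shares outside the cycle-rich cells lie within the wide intervals of the comparison cells. For these groups a lone UMI in a cell that is not cycle-rich is thus not read here as expression. Single members went either way. Mcm4 was seen in 1.87% of other cells and 0% of comparison cells, and Mcm2 in 1.73% and 2.80%. The comparison cells may hold such RNA of their own, and the part of stray RNA was not tested. The chromatin and other members differed as a group: 75.2% of other cells had a UMI (74.3 to 76.0) against 49.5% (39.7 to 59.4). Members of this group also went either way. H2afz was seen in 55.2% of other cells and 34.6% of comparison cells, Smc4 in 21.8% and 6.54%, and Hmgb2 in 21.4% and 13.1%. Ezh2 was also higher in other cells, and Cks1b by almost nothing. Hist1h2ap was lower, at 2.34% and 7.48%, as were Stmn1, 2810417H13Rik, Hist1h2ae and Smc2.

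The mixture of the outside UMIs was not that of the cycle-rich cells. Outside there were 2.21 replication UMIs for each mitosis UMI (5572 and 2521), and inside there were 0.595 (2255 and 3787). The ratio ran from 1.77 to 2.80 over the sets outside and from 0.327 to 1.17 inside, so the ranges did not overlap (for these, each gene also counted in choosing cells). The 118 comparison cells held 73 replication and 63 mitosis UMIs, a ratio of 1.16. The cycle-rich myeloid-like cell is among them, and its part in this ratio was not tested. These ratios were set side by side after their values were seen.

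Among the replication members, the 6 Mcm genes encode the ring-shaped helicase that unwinds DNA. Mcm6 was the most widely seen, with 1397 UMIs in 1149 cells, or 10.8% of cells. Its level per set was lowest at 39.7 CPM, with a median of 53.7 and a highest value of 72.3 CPM. The third set was lowest and the fourth highest. Outside the cycle-rich cells lay 82.7% of its UMIs (80.7 to 84.7), and its level there was 47.7 CPM against 205 CPM inside, a log2 ratio of 2.10 (1.90 to 2.30).

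Mcm7 had 890 UMIs in 6.96% of cells and stood at 27.1 CPM in the lowest set, 34.5 CPM at the median and 40.8 CPM in the highest. Mcm3 had 635 UMIs in 4.91% of cells and stood at 17.8, 23.0 and 34.7 CPM in the same order. For both genes the third set was lowest, as for Mcm6. Mcm2, Mcm4 and Mcm5 each had 540 to 563 UMIs, in 4.11% to 4.50% of cells. The share outside was 77.0% for Mcm7, 73.1% for Mcm3, 75.2% for Mcm2, 80.6% for Mcm4 and 65.5% for Mcm5, the last being the lowest of the helicase genes. Mcm7 lies across from Ap4m1 and Cops6 on the other strand, and the same-strand small RNAs Mir25 and Mir93 lie within it.

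Pcna, the sliding clamp that holds polymerases on DNA, had 1337 UMIs in 1090 cells (10.2%). It stood at 43.2 CPM in the lowest set, 52.6 CPM at the median and 61.1 CPM in the highest. The third set was again the lowest and the fourth again the highest. Outside lay 79.7% of its UMIs (77.4 to 81.8), and 968 of the 1090 cells had a single UMI. Its log2 ratio between cycle-rich and other cells was 2.41 (2.21 to 2.61).

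The nucleotide supply genes did not share one pattern. Tyms, which makes thymidylate, had 594 UMIs with 67.5% outside, and Rrm1, the large subunit of ribonucleotide reductase, had 350 UMIs with 68.0% outside. Rrm2, the small subunit of the same enzyme, had 514 UMIs in 191 cells (1.79%), and 23.5% of them lay outside (19.9 to 27.5). In the 6 sets the outside share of Rrm2 ran from 19.0% to 34.1% and that of Rrm1 from 48.4% to 84.6%, with no overlap. Rrm2 stood at 316 CPM in cycle-rich cells and 5.01 CPM in the others (log2 ratio 5.98, 5.68 to 6.29), against 90.0 and 9.86 CPM for Rrm1 (log2 ratio 3.19, 2.85 to 3.52). Tk1, the thymidine salvage kinase, had 306 UMIs with 48.0% outside. Uhrf1, which brings DNA methylation to newly copied DNA, had 145 UMIs with 50.3% outside, with an interval from 41.9% to 58.7%.

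Most mitosis members were concentrated in few cells. Ccnb2, a B-type cyclin that activates Cdk1, had 306 UMIs in 99 cells (0.93%), of which 14.1% lay outside (10.4 to 18.5). Its level was 209 CPM in cycle-rich cells and 1.78 CPM in the others, a log2 ratio of 6.87 (6.40 to 7.37). Ccna2, a cyclin of S phase and G2, had 166 UMIs in 75 cells with 15.1% outside. Ccnb1 had 154 UMIs in 73 cells with 22.7% outside. Cdk1, the kinase these cyclins switch on, had 225 UMIs in 127 cells with 28.0% outside.

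Birc5 encodes survivin, a part of the chromosomal passenger complex, and had 551 UMIs in 166 cells (1.55%). It stood at 7.50 CPM in the lowest set, 18.2 CPM at the median and 38.1 CPM in the highest. The second set was lowest and the sixth highest. Outside lay 17.1% of its UMIs (14.0 to 20.5), and its log2 ratio was 6.54 (6.22 to 6.88). Its partners in the complex were Cdca8, with 246 UMIs and 32.9% outside, and the kinase Aurkb, with 130 UMIs and 22.3% outside.

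Top2a, the enzyme that untangles sister chromatids, had 540 UMIs in 261 cells (2.44%) with 36.1% outside (32.1 to 40.3). It stood at 9.26 CPM in the lowest set, 19.7 CPM at the median and 38.5 CPM in the highest. The third set was lowest and the sixth highest. Mki67, which coats mitotic chromosomes and is widely used as a proliferation marker, had 213 UMIs in 152 cells (1.42%), and 47.9% lay outside (41.0 to 54.8). Its log2 ratio was 4.40, against 5.10 for Top2a (4.85 to 5.37).

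Cenpa and Cks2 were the mitosis members that lay mostly outside. Cenpa, the histone variant that marks centromeres, had 1094 UMIs in 814 cells (7.62%) and stood at 29.0 CPM in the lowest set, 38.7 CPM at the median and 62.5 CPM in the highest. Cks2, a small subunit bound to cyclin-dependent kinases, had 917 UMIs in 633 cells (5.93%) and stood at 23.5, 34.6 and 50.2 CPM. For both genes the fifth and sixth sets were the highest. Outside lay 72.5% of Cenpa UMIs (69.7 to 75.1) and 64.9% of Cks2 UMIs (61.7 to 68.0). At 1000 UMIs per cell, Cenpa was seen in 3.42% of other cells and 7.48% of comparison cells, and Cks2 in 2.32% and 2.80%.

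The members that drive chromosome segregation and mitotic exit were seen in few cells. Ube2c, which serves the anaphase-promoting complex, had 428 UMIs in 140 cells with 20.8% outside, and Cdc20, which activates that complex, had 263 UMIs in 152 cells with 41.1% outside. Nusap1, a spindle protein, had 300 UMIs with 17.7% outside, and Cdca3 had 222 UMIs with 21.2% outside. Cdkn3, a phosphatase of cyclin-dependent kinases, had 124 UMIs with 25.8% outside, and Cenpf, a kinetochore protein, had 118 UMIs with 30.5% outside. Counts were lowest for Tpx2 and Plk1 with 92 UMIs each, Aurka with 71 and the spindle motor Kif11 with 56. At this depth the share outside of Kif11 has an interval from 28.1% to 55.0%, so its place among the mitosis genes is not resolved.

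**Figure D3:**
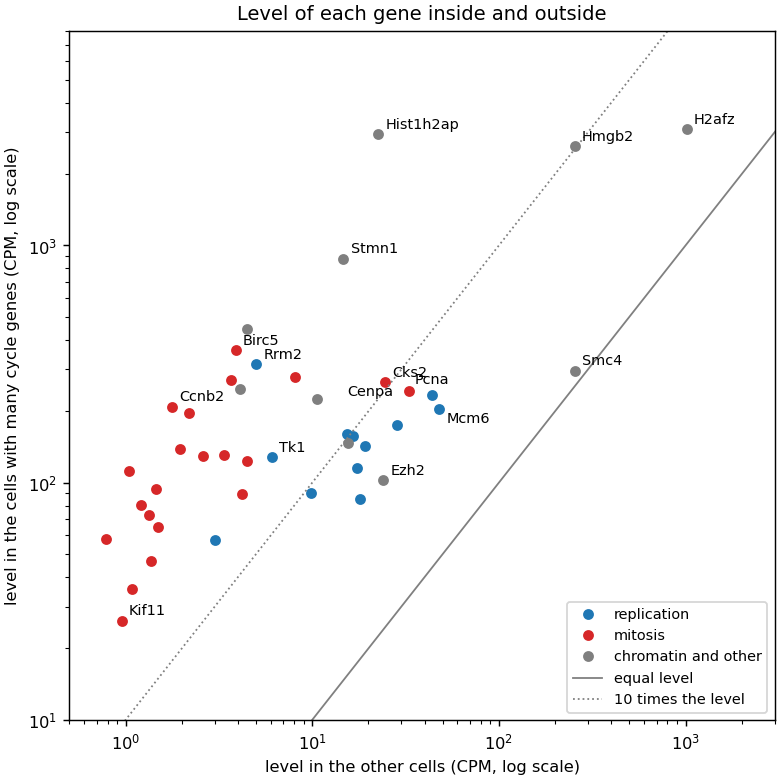
Level of each of the 43 members in the cells with many cycle genes (vertical axis, CPM) against the other cells (horizontal axis, CPM), both on log scales, with a solid line at equal level and a dotted line at 10 times the level. Mitosis genes lie mostly above the dotted line, replication genes lie mostly below it except Rrm2, Tk1, Uhrf1 and Mcm5, and Smc4 lies nearest the line of equal level.

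The chromatin and other members ranged from almost purely cycle-rich to almost even. Hist1h2ap, a replication-dependent histone H2A gene, had 4265 UMIs in 562 cells, and 18 cells held 50% of them. It stood at 82.5 CPM in the lowest set, 168 CPM at the median and 287 CPM in the highest, with the second set lowest and the sixth highest. Outside lay 12.8% of its UMIs (11.8 to 13.8), with a log2 ratio of 7.03 (6.90 to 7.16). Hist1h2ae, another gene of this family, had 412 UMIs with 24.0% outside. Histone genes of this family have near-identical copies, and how reads were shared among them is not given in the sources used here, so both values are uncertain.

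Smc4, a condensin subunit that compacts chromosomes, showed the opposite. It had 6556 UMIs in 40.8% of cells and stood at 242 CPM in the lowest set, 255 CPM at the median and 285 CPM in the highest, so the sets were close together. Outside lay 94.3% of its UMIs (93.7 to 94.9), and its level was 296 CPM in cycle-rich cells and 256 CPM in the others, a log2 ratio of 0.21 (0.05 to 0.36). At 1000 UMIs per cell it was seen in 21.8% of other cells and 6.54% of comparison cells. Its condensin partner Smc2 had 560 UMIs with 66.8% outside and a log2 ratio of 3.25 (2.99 to 3.51).

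H2afz, a histone H2A variant used throughout the cycle, was the most abundant member with 28329 UMIs in 76.6% of cells. It stood at 965 CPM in the lowest set, 1147 CPM at the median and 1235 CPM in the highest. Its log2 ratio was 1.61 (1.56 to 1.66), and at 1000 UMIs per cell it was seen in 55.2% of other cells against 34.6% of comparison cells. Hmgb2, a DNA-bending chromatin protein, had 9444 UMIs in 39.8% of cells and stood at 247, 373 and 499 CPM. The fourth to sixth sets, at 472 CPM or more, lay above the first 3, at 274 CPM or less. Its log2 ratio was 3.36 (3.30 to 3.43), with 65.0% of UMIs outside.

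Stmn1, which destabilises microtubules, had 1462 UMIs in 4.03% of cells with 24.2% outside, and 2810417H13Rik, named Pclaf in RefSeq and a Pcna-binding protein, had 670 UMIs with 16.1% outside. Cks1b, the relative of Cks2, had 540 UMIs with 47.6% outside. Ezh2, the methyltransferase of the Polycomb repressive complex, had 707 UMIs in 5.75% of cells with 81.8% outside and a log2 ratio of 2.09 (1.81 to 2.37).

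**Figure D4:**
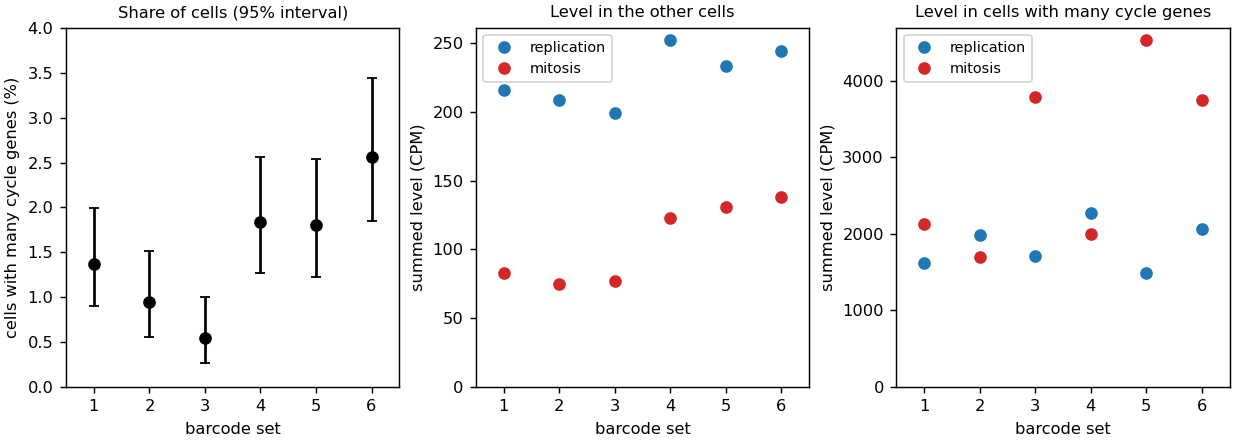
Share of cells with many cycle genes (left, %, with 95% exact intervals) and summed level of the replication and mitosis members (CPM) in the other cells (middle) and in the cells with many cycle genes (right), for each of the 6 barcode sets. The share runs from 0.55% in the third set to 2.56% in the sixth, and in the other cells the replication level lies above the mitosis level in each set.

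Calls took genes with 100 or more UMIs. A gene was called higher in cycle-rich cells when its level was at least 1.5-fold higher there and higher in each of the 6 sets. With 0.5 UMIs added in each set, a gene without UMIs in few cycle-rich cells can still score as higher there. Calls on thinly counted genes, and the share of all genes called, thus lean towards higher. Of 9063 genes, 8.87% were called higher and 4.83% lower. Of the 39 members with enough UMIs, 38 were called higher, Smc4 not; Aurka, Tpx2, Plk1 and Kif11 had too few. Since members chose these cells, the count is a description, and it was 21 in thinned cells and 24 without the deepest and marker-bearing cells. The median log2 ratio was 3.05 over replication, 5.63 over mitosis and 3.88 over chromatin and other members, against -0.03 over all genes tested.

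Choosing cells by one group alone left the other group free. Cells with 3 or more replication genes numbered 308, and there the mitosis members had a median log2 ratio of 4.82 over the other cells (lowest 2.14 for Cenpa, highest 5.65 for Nusap1). Even so, 43.3% of mitosis UMIs lay outside these cells. Cells with 3 or more mitosis genes numbered 115, and there the replication members had a median log2 ratio of 2.89 (lowest 1.96 for Mcm6, highest 6.32 for Rrm2), with 76.7% of replication UMIs outside. Rrm2 thus had the highest ratio of the replication members also in cells that it had no part in choosing.

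The overlap of both choices gave 82 cells with 3 or more genes of each group, 226 with replication genes only and 33 with mitosis genes only. Median depth was 8596, 3860 and 4017 UMIs, against 2060 in the 10339 cells with neither. Of the replication-only cells, 63 were cycle-rich and 163 were not, while all 82 cells with both and 14 of the 33 with mitosis genes only were cycle-rich.

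Genes that did not choose these cells were then read across them. A fixed list of 35 other replication genes, such as ligases, primases and clamp loaders, summed to 1289 CPM in replication-only cells, 3312 in cells with both, 641 in mitosis-only cells and 641 in cells with neither. The log2 ratio of replication-only cells over cells with neither was 1.01 (0.93 to 1.09), with 0.75 to 1.19 over the sets. Against 655 cells with neither group but with at least the median UMIs of replication-only cells (their own median was 4450 UMIs), it was 1.07 (0.96 to 1.17). Those cells were thus deeper than the replication-only cells and not matched to them in depth. A fixed list of 48 other mitosis genes summed to 1912 CPM in replication-only cells, 7900 in cells with both, 2863 in mitosis-only cells and 1373 with neither.

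The histone and chromatin members did not share one pattern over these classes. Hist1h2ap stood at 4923 CPM (4765 to 5085) in cells with both groups, 225 CPM (155 to 316) in mitosis-only cells, 13.7 CPM (7.47 to 22.9) in replication-only cells and 23.0 CPM (21.1 to 25.0) in cells with neither. Its replication-only level rests on 14 UMIs. Hmgb2 stood at 3838 CPM with both, 1977 in mitosis-only cells and 340 in replication-only cells, against 253 with neither. Stmn1 stood at 1338, 300 and 79.1 CPM, against 14.4. These 3 genes, chosen here after their values were seen, were higher in mitosis-only than in replication-only cells, with log2 ratios of replication-only over mitosis-only of -4.04 (-5.06 to -3.10), -2.54 (-2.77 to -2.31) and -1.92 (-2.47 to -1.36). For Hist1h2ae, 2810417H13Rik, Cks1b and H2afz the ratio was -2.80, -2.51, -2.20 and -0.22 (for H2afz -0.41 to -0.03), each with an interval below 0. The Hist1h2ae ratio rests on 4 UMIs in each class, and that of 2810417H13Rik on 11 replication-only and 9 mitosis-only UMIs. These intervals treat UMIs as independent, although 1 cell can hold many, up to 164 for Hist1h2ap. They do not cover the spread between the few cells of a class. Smc2 at -1.22 (-2.35 to 0.05), Smc4 at 0.28 (-0.29 to 0.90) and Ezh2 at 0.86 (-0.80 to 3.20) had intervals that include 0.

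Beyond the members, most of the other replication and mitosis genes with enough UMIs were also higher in cycle-rich cells. Of the 35 other replication genes, 29 had 100 or more UMIs, and 25 of these were called higher and none lower, with a median log2 ratio of 2.22. Among them were the primase subunit Prim1 at 3.89 and the ligase Lig1 at 3.88. Of the 48 other mitosis genes, 21 had 100 or more UMIs, and 20 of these were called higher and none lower, with a median of 3.17. The largest were the kinetochore genes Spc25 at 5.20 and Spc24 at 4.64, the motor Kif22 at 4.91 and the spindle midzone gene Prc1 at 4.66. The 15 genes with the highest ratios outside the member list were led by the DNA glycosylase Neil3 at 6.45 and the Myc network gene Mxd3 at 6.21, and also held Cenpe, Fignl1, Cenpm, Cenph, Cdc45, Asf1b and Tacc3.

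Genes of cycle entry had smaller ratios. Of 10 G1 and entry genes tested, 4 were called higher and none lower, with a median of 0.71. Among them were Cdk2 at 1.76, Cdc25a at 1.55 and E2f3 at 1.10, which rest on 49, 17 and 11 UMIs in cycle-rich cells. E2f2 was at 1.28 but not higher in every set. Of 14 inhibitors and quiescence genes, 4 were called higher and 4 lower. Cdkn2c was at 1.94, the Rb relative Rbl1 at 1.66 and Cdkn1a at 1.54, although these are known as brakes on the cycle. The Cdkn1a value rests on 16 UMIs in cycle-rich cells. Btg1, an antiproliferative gene, was at -1.52. It made up 1761 of the 2985 CPM of this list in other cells and 614 of 1662 CPM in cycle-rich cells. The summed ratio of the list thus leans on Btg1.

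**Figure D5:**
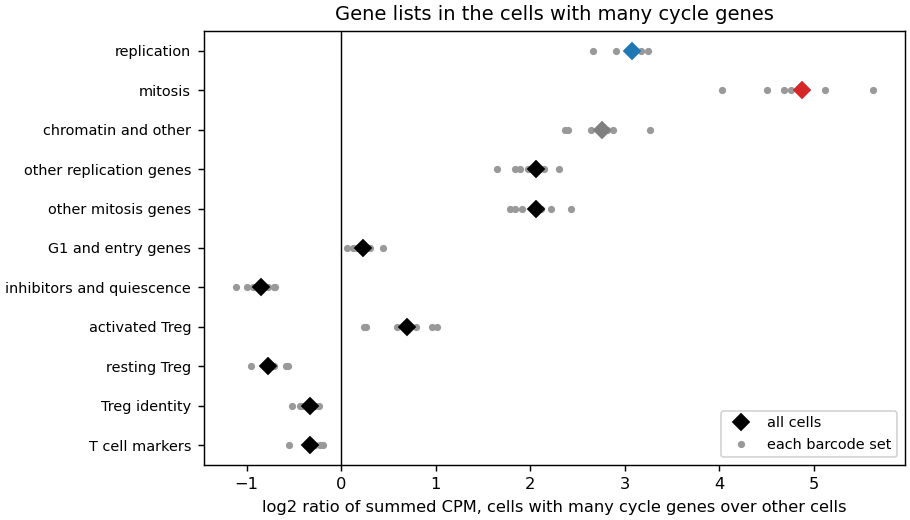
Log2 ratio of summed CPM in the cells with many cycle genes over the other cells (horizontal axis) for the 3 member groups and 8 fixed gene lists, with diamonds for all cells and grey points for the 6 barcode sets. The 3 member groups and the other replication and mitosis genes lie well above 0 in every set, whereas inhibitors, resting Treg, Treg identity and T cell marker lists lie below 0 in every set.

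Lists of regulatory T cell genes are read beside the shares of all genes, of which 8.87% were called higher and 4.83% lower. Of 26 genes of activated Treg cells, 4 were called higher and 1 lower, with a median of 0.12, so most of this list was not called. The galectins Lgals3 and Lgals1 were at 2.57 and 1.90, S100a6 at 1.69 and S100a4 at 1.21, and the integrin gene Itgae, at -0.87, was called lower. Gzmb, which encodes granzyme B, was at 1.58 but not higher in every set. Of 13 genes of resting Treg cells, none was called higher and 4 lower, including the survival gene Bcl2 at -1.58, the interleukin 7 receptor Il7r at -1.16 and the kinase Txk at -0.88. Of 15 Treg identity genes, none was called higher and 3 lower. These were Foxp3 at -1.07, Il2ra at -0.71 and Izumo1r at -0.68, with Ikzf2 at -0.57 and not called. The value for Foxp3 rests on 13 UMIs, and a Foxp3 UMI was seen in 8.18% of cycle-rich and 4.77% of other cells, at their unequal depths. T cell markers had a median of -0.31, with 0 of 5 called.

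The share of cycle-rich cells was also read against a score of activated minus resting Treg UMIs at 1000 UMIs per cell, a comparison added after the data were seen. Cells were split within each set near the terciles of the score. Cycle-rich cells made up 0.87% of 2743 cells in the lower part (0.56 to 1.30) and 2.22% of 2879 in the upper part (1.72 to 2.83), with 71 of 4743 cells in the middle part. The upper share was above the lower in 6 of 6 sets, though in the first set by almost nothing, 0.998% against 0.996%.

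Outside the cycle-rich cells, the upper part held 258 CPM of replication members against 203 in the lower part, 137 against 79.6 CPM of mitosis members and 1946 against 1390 CPM of chromatin and other members. The median gene was 0.22 higher in the upper part on the log2 scale, so ratios are given relative to it. The summed log2 ratio was then 0.12 (0.02 to 0.23) for replication, 0.56 (0.40 to 0.72) for mitosis and 0.26 (0.22 to 0.30) for chromatin and other members. On that footing 4.51% of 7598 genes were called higher and 3.57% lower, and of 19 members tested Cks2 at 1.39 (1.04 to 1.76) and Tyms at 0.81 (0.41 to 1.22) were called higher and Smc4 at -0.81 (-0.91 to -0.70) lower. Without that shift, H2afz, Tyms, Cks2 and Hmgb2 were called higher and none lower, against 9.54% and 1.38% of genes. The mitosis sum leans on Cks2, which held 246 of its 850 UMIs in the upper part and 90 of 555 in the lower. Of the 21 mitosis members, 2 had enough UMIs to be tested. Median depth was 1927 UMIs in the upper and 2482 in the lower part, and its part in these values was not tested.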

How the data were processed

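Single-cell RNA was measured with 10x 3′ v2 chemistry in 6 samples of sorted Treg cells. The deposited raw table holds UMI counts per gene and cell. The submitters' processing notes name FastQC, cutadapt, HISAT2, Cell Ranger, Seurat and mm10, with no version or role. A second deposited table, on a natural log scale, was used only for which cells it holds. Cells needed at least 200 genes and under 10% mitochondrial UMIs; 10680 of 10685 were kept, with 507 to 22130 UMIs per cell in the table. The columns name no sample, so cells were read as a whole and by 6 barcode sets.

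Counts were summed over cells and scaled to CPM in Python 3.11.15 with numpy 2.4.6, scipy 1.17.1 and pandas 2.3.3, figures with matplotlib 3.10.9. Shares have 95% exact Clopper-Pearson intervals, levels exact Poisson intervals and ratios exact conditional binomial intervals. Ratios in a single set had 0.5 UMIs added. A cell was B cell-like, plasma cell-like, myeloid-like or erythroid-like when UMIs of at least 2 distinct markers of that type outnumbered its T cell marker UMIs. Values by set are given for the 4 members of each group with the most UMIs, the 4 largest log2 ratios of each list with at least 100 UMIs, and the 15 highest other genes with at least 30 UMIs in, and seen in at least 20% of, cycle-rich cells. The members and gene lists were chosen with earlier results of these data known. Of the members, 11 overlap a gene on the other strand and 3 a small RNA gene on the same strand, and whether counting used strand is not given in the sources used here. Some genes that this rule names are not reported here.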

Additional observations from a re-analysis of the deposited data

Results flagged for a closer look

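Of 46 series of 6 set values that were examined for a lone extreme, 1 stood apart. Aurkb, the kinase of the chromosomal passenger complex, was at 11.9 CPM in the highest set, while the other 5 sets ran from 2.30 to 5.49 CPM, so the gap to its neighbour was a large part of the whole range. Chance alone gives about 1 such value in 20 series.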

How the results depend on the processing

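Main values were 1.49% cycle-rich cells, outside shares of 71.2% (replication), 40.0% (mitosis) and 73.8% (chromatin and other), 38 members called higher, and 39.6% and 20.9% of cells with a replication and a mitosis UMI. With 3 distinct genes required, the cycle-rich share was 5.70% and the outside shares 66.2%, 37.0% and 68.0%. With 8 genes they were 0.94%, 75.2%, 41.9% and 75.8%. With 10 UMIs in place of distinct genes the cycle-rich share was 1.09% and the replication and chromatin shares 73.3% and 75.0%. Thinned to 1000 UMIs with 3 genes, the values were 1.19%, 92.1%, 74.3% and 92.2%, with 21 members called higher and 21.2% and 10.6% of cells with a UMI. In cells that the natural log table also holds, which lacks 53 of the 159, they were 1.01%, 85.5%, 62.3% and 87.4%. Without the deepest 2% of cells and any cell with an Hbb-bs, Cd8a, Lyz2 or Cd79a UMI, which took out 1403 cells and 123 of the 159, they were 0.39%, 95.5%, 82.3% and 95.8%, with 24 members called higher and 38.2% and 19.5% of cells with a UMI. Under each of these settings the replication share outside stayed above the mitosis share.

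Leaving out each set in turn gave 1.29% to 1.68% cycle-rich cells, outside shares of 69.1% to 74.4%, 38.3% to 44.2% and 71.9% to 77.0%, 35 to 38 members called higher, and 38.7% to 40.5% and 19.4% to 22.1% of cells with a UMI. Of the 107 values under other settings, 59 moved by less than their interval or kept their count within 1.5 times, 46 moved by more and 2 counts were weaker. Among the 59 were those without shared barcodes, without haemoglobin-rich cells or without cells of other types, 3 settings chosen after the data were seen. The 59 also hold shares of cells with a UMI under another cycle-rich threshold, which could not change. No paired analysis was possible because the columns carry no sample or replicate number. Depth limits the least counted members, Kif11, Aurka, Tpx2 and Plk1.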

Other observations

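The barcode sets, which the labels put in no group, differed in cycle RNA outside the cycle-rich cells. Mitosis members stood there at 82.9, 74.5 and 76.7 CPM in the first 3 sets and at 123, 131 and 138 CPM in the fourth to sixth. Replication members stood at 216, 208 and 199 CPM in the first 3 sets and at 252, 234 and 244 CPM in the others. The ranges did not overlap for either group. This split of the sets was not planned, and the share of all genes that split in the same way is not given here. The genotype of each set is not known, and the cause of the difference was not tested.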
